A study of Homo sapiens with 2 samples.

Results

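The 10 genes described here are the cyclins, kinases and activators that carry a cell through G1, the part of the cell cycle before DNA replication. They are CDK4, CDK6, CDK2, CCND2, CCND3, CCNE1, CCNE2, CDC25A, SKP2 and CKS1B. They were picked by gene symbol for their place in the pathway, and all 10 were found among the 19096 symbols of the tables. A symbol with several transcript rows was represented by the row with the highest mean over both libraries. The samples were P493-6 cells, a human B cell line with a c-Myc transgene that tetracycline keeps repressed. The high c-Myc group had a single library of poly(A)-selected RNA, from cells 24 h after release of the transgene, and so had the low c-Myc group, from cells at 0 h. Both groups carried the same transgene and grew in the same medium, and the labels call the line a B-cell lymphoma. Each sample received synthetic RNAs in proportion to its number of cells.

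In G1, growth signals raise the D-type cyclins, which switch on the kinases CDK4 and CDK6, and these phosphorylate the retinoblastoma protein so that E2F factors are set free. E-type cyclins with CDK2 then complete that phosphorylation and start DNA replication. The phosphatase CDC25A removes inhibitory phosphates from CDK2, while SKP2 with its cofactor CKS1B marks the CDK inhibitor p27Kip1 for degradation. In lymphocytes this set of genes governs the step out of quiescence, and c-Myc is a transcription factor known to promote that step through DNA sites called E-boxes.

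Levels are given in RPKM, which the authors scaled to transcript length and to library size. Ratios are of high over low c-Myc of log2(RPKM + 0.5), a scale that shrinks the ratios of scarce transcripts, and 2-fold means a log2 ratio at or beyond 1 or -1. Each group was 1 library, so differences have no replicate check and none was tested. Intervals at 95% come from approximate reads, apply to RPKM without the pseudocount, and cover counting error only. In bulk RNA, more cells in a given phase of the cycle and more RNA per cell cannot be told apart.

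The steps between the lowest values implied about 105000000 reads for the high c-Myc library and 103000000 for the low one. The 5 B cell markers examined were all detected, with a summed RPKM of 1175 in high c-Myc cells and 3081 in low c-Myc cells. The 3 myeloid markers summed to 24.5 and 84.1 RPKM and the 3 T cell markers to 1.63 and 10.4 RPKM in the high and low c-Myc libraries, while CD3D and HBB were listed at 0 in both. The fibroblast and epithelium markers COL1A1 and EPCAM summed to 10.3 RPKM in high c-Myc cells and 8.52 RPKM in low c-Myc cells, most of it COL1A1 at 9.24 and 8.06 RPKM, and the erythroid marker HBA1 stood at 0.165 RPKM in high c-Myc cells and was listed at 0 in low c-Myc cells. The part of these markers in the ratios below was not tested. Among the synthetic RNAs, 46 reached 1 RPKM in each library, and these had a median log2 ratio of -2.56 (interquartile range -2.84 to -2.17). Subtracting that median gave the ratio per cell.

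The promoters of CDK4 and CDC25A are shown because their genes had the highest ratios of the set. Of the 10 genes, 7 matched the RefSeq promoter table (GRCh38.p14), with 10 windows of 300 bases that run from 250 bases before a gene's start to 50 after it. CACGTG, the core E-box, which reads the same on both strands, was searched for in all of them, as was the E2F element TTTGGCGC or TTTCGCGC on either strand. The first line is CDK4, chr12:57752311-57752560 on the minus strand, with CACGTG in capitals, and the second is CDC25A, chr3:48188418-48188667 on the minus strand, with TTTGGCGC in capitals. Both run 5′ to 3′ and end at the base before the start.
CDK4: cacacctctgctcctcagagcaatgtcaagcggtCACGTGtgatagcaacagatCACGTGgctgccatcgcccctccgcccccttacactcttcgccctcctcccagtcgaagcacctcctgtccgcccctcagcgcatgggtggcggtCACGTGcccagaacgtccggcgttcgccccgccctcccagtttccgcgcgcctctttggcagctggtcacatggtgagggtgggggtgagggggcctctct
CDC25A: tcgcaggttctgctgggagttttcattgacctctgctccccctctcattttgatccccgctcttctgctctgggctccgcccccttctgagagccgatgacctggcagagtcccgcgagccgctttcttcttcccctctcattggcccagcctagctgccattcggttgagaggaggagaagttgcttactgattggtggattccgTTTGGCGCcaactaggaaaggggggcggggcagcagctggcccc

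CDK4 held 3 copies of CACGTG, whose first bases lie at positions -216, -196 and -101 from the start. At least 1 copy was present in 7.26% of the 35116 windows in the table and at least 3 copies in 0.094%. CDC25A held TTTGGCGC at position -44, an element present on either strand in 0.652% of the windows. One window of CDK6 held CACGTG at position 31 after the start. The windows of CCND3, CCNE1, SKP2 and CKS1B held none of these letters, and TTTCGCGC, found in 0.515% of all windows, was in none of the 10. The start of CDK4 used here is that of RefSeq, and the GENCODE transcript that served for its length begins farther upstream. These matches are a description of sequence and not of binding.

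Across the set, 4 genes passed 2-fold towards high c-Myc cells as deposited, namely CDK4, CDC25A, SKP2 and CCNE1, and no gene passed it the other way. The count was 7 without a pseudocount or with one of 0.1, 6 after GC correction, and 3 with a pseudocount of 1, after centring, with equal summed RPKM and after quantile normalization. As deposited, that is 4 of 10 genes higher, beside 24.9% of the 10272 genes expressed at a mean RPKM of at least 1, and none lower, beside 9.74% of the expressed genes. The median log2 ratio of the 10 genes was 0.81 (0.61 to 1.28 over the pseudocounts tried), beside 0.22 over all expressed genes, whose interquartile range was -0.44 to 0.997. The set holds too few genes for its count to be set apart from that background. CCNE2 and CKS1B fell below the expression filter, with mean RPKM values of 0.979 and 0.21, and CDK6 passed it only through the high c-Myc library. The background shares cover expressed genes only, and the 4 higher genes were among the 8 of the set that passed the filter.

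**Figure D1:**
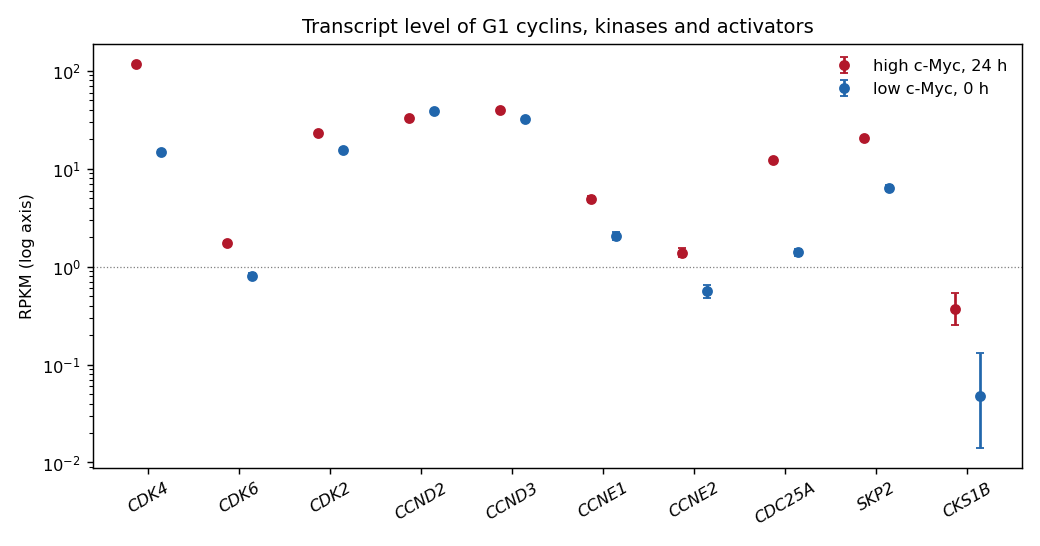
RPKM (log axis) of each gene in high c-Myc cells (red, left) and low c-Myc cells (blue, right), 1 library each, with bars for the exact 95% Poisson interval on approximate reads. CDK4 stood at 119 RPKM in high c-Myc cells and 15.0 in low c-Myc cells, while CCND2 and CCND3 differed little between the libraries. The dotted line marks an RPKM of 1.

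Among the kinases, CDK4 (NM_000075), a partner of the D-type cyclins, had the highest log2 ratio of the set. It stood at 119 RPKM in high c-Myc cells, at rank 410 by level, against 15.0 RPKM in low c-Myc cells, at rank 3073. That was 7.68-fold higher on the pseudocount scale, a log2 ratio of 2.94, which ranked 239 among the 10272 expressed genes. Without a pseudocount the log2 ratio was 2.98 with a counting interval of 2.93 to 3.04. The gene, over all its annotated transcripts, spans chr12:57747727-57756013 on the minus strand (GRCh38, GENCODE release 29), and exons of TSPAN31, a tetraspanin gene on the opposite strand, cover 51.9% of its transcript. TSPAN31 stood at 2.72 RPKM in high c-Myc cells and 10.5 RPKM in low c-Myc cells, a log2 ratio of -1.77. No source used here says whether counting took account of strand, and the share of reads from the overlap was not tested. Near-identical copies in 7 other genes match 14% of the CDK4 transcript. Gene positions given below follow the same build and release.

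CDK6 (NM_001259, chr7:92604921-92836594), the closest relative of CDK4, was scarce in both libraries. It stood at 1.75 RPKM in high c-Myc cells and 0.813 RPKM in low c-Myc cells, a log2 ratio of 0.78 with the pseudocount and 1.10 without it (counting interval 0.99 to 1.21). Its place beside 2-fold therefore turned on the pseudocount. The gap between the kinases was wider in high c-Myc cells, where CDK6 stood at 0.0147 times the RPKM of CDK4, against 0.0542 times in low c-Myc cells. Put the other way, CDK4 exceeded CDK6 67.9-fold in high c-Myc cells and 18.4-fold in low c-Myc cells. These ratios are taken within a library, so the scaling between libraries drops out, and their counting intervals (0.0141 to 0.0154 and 0.0504 to 0.0583) did not overlap. After GC correction the log2 ratios, 2.89 for CDK4 and 1.15 for CDK6, were still apart in the same direction.

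CDK2 (NM_052827, chr12:55966769-55972784), the partner of the E-type cyclins, differed less than CDK4. It stood at 23.1 RPKM in high c-Myc cells and 15.7 RPKM in low c-Myc cells, a log2 ratio of 0.54. Its other transcript row had a log2 ratio of 0.54 as well. In the low c-Myc library CDK2 and CDK4 were the only neighbours in the order of levels whose counting intervals overlapped, at 15.1 to 16.4 RPKM for CDK2 and 14.5 to 15.5 RPKM for CDK4. In the high c-Myc library CDK4 stood far above CDK2. CDK2 shares 7.06% of its transcript with exons of PMEL on the opposite strand, and PMEL stood at 0.246 RPKM in high c-Myc cells and 0.571 in low c-Myc cells. Exons of another antisense gene, for which no value is given here, cover 22.8% of it.

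The D-type cyclins were the most abundant cyclins of the set in both libraries. As deposited they had the log2 ratios nearest to 0, while CDK2 was nearer to 0 than CCND2 after centring (0.32), with equal summed RPKM (0.23) and after quantile normalization (0.05). CCND2 (NM_001759, chr12:4273772-4305350) stood at 33.3 RPKM in high c-Myc cells and 38.6 RPKM in low c-Myc cells, a log2 ratio of -0.21 that was -0.43 after centring on the median gene, -0.53 with equal summed RPKM, -0.82 after quantile normalization and 0.06 after GC correction. Exons of AC008012.1, a protein-coding gene on the same strand, cover 15.3% of its transcript and those of CCND2-AS1, on the opposite strand, cover 1.94%, and the share of reads from these overlaps was not tested. CCND3 (NM_001760, chr6:41934933-42050357) stood at 40.1 RPKM in high c-Myc cells and 32.3 RPKM in low c-Myc cells, a log2 ratio of 0.31 that was -0.00 with equal summed RPKM, -0.34 after quantile normalization and -0.19 after GC correction. CCND2 was thus lower in high c-Myc cells as deposited and under each of these scalings, and not after GC correction. The direction of CCND3 turned on the scaling as well. Per cell both were higher in high c-Myc cells, with log2 ratios of 2.35 for CCND2 and 2.87 for CCND3. The 4 transcript rows of CCND3 had log2 ratios of 0.19 to 0.31.

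By their most abundant rows, the order of the D-type cyclins differed between the libraries. CCND3 was 1.21 times the RPKM of CCND2 in high c-Myc cells (counting interval 1.18 to 1.24) and 0.837 times in low c-Myc cells (0.815 to 0.859). The transcripts differ in GC content, 60.0% for CCND3 and 45.5% for CCND2, and expressed genes in their GC bins had median log2 ratios of 0.75 and 0.06. After GC correction the log2 ratio of CCND3 was below that of CCND2, so the direction of this shift turned on the GC correction. From the sum of rows, which counts reads shared by the 4 CCND3 rows repeatedly, CCND3 was above CCND2 in both libraries, 4.71 times in high and 3.41 times in low c-Myc cells. The remaining D-type cyclin, CCND1, stood at 0.48 RPKM in high c-Myc cells and 0.521 in low c-Myc cells. Per kilobase, the D-type cyclin RNA of these cells was thus almost entirely that of CCND2 and CCND3 in both libraries.

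The E-type cyclins were scarcer and had higher ratios than the D-type cyclins. CCNE1 (NM_001238, chr19:29811898-29824308), which activates CDK2, stood at 4.93 RPKM in high c-Myc cells and 2.07 RPKM in low c-Myc cells, a log2 ratio of 1.08 with the pseudocount and 1.25 without it (counting interval 1.09 to 1.42). It stood below 2-fold in 4 settings, at 0.95 with a pseudocount of 1, 0.86 after centring on the median gene, 0.79 with equal summed RPKM and 0.93 after quantile normalization. CCNE2 (NM_057749), the second E-type cyclin, stood at 1.40 RPKM in high c-Myc cells and 0.563 RPKM in low c-Myc cells. Its log2 ratio was 0.84 with the pseudocount and 1.31 without it (counting interval 1.04 to 1.59).

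As deposited, the proportion between the E-type cyclins was close in both libraries. CCNE2 was 0.283 times the RPKM of CCNE1 in high c-Myc cells and 0.272 times in low c-Myc cells, and the counting intervals of 0.252 to 0.318 and 0.226 to 0.328 overlapped. After GC correction the log2 ratios were 1.53 for CCNE2 and 1.03 for CCNE1, so the like proportion did not hold with that correction. Exons of INTS8, an Integrator subunit gene on the opposite strand, cover 55.8% of the CCNE2 transcript. INTS8 stood at 6.68 RPKM in high c-Myc cells and 7.07 RPKM in low c-Myc cells, several times the level of CCNE2, and the share of reads from the overlap was not tested.

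**Figure D2:**
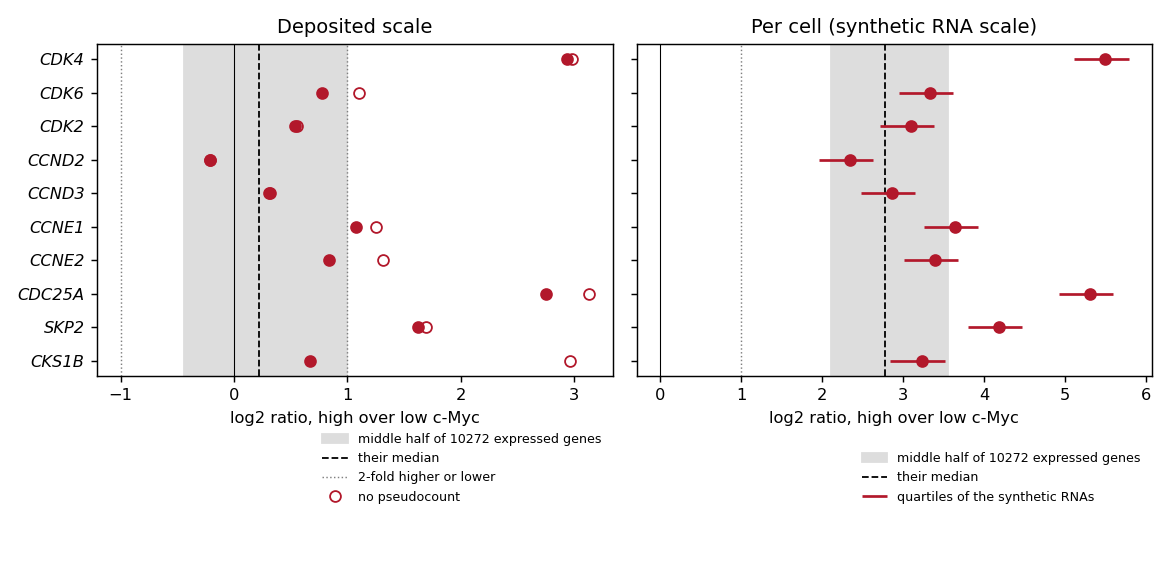
Log2 ratio of high over low c-Myc for each gene on the deposited scale (left) and per cell (right). Filled points use a pseudocount of 0.5, and open points, drawn on the left only, use none. The grey band and dashed line are the interquartile range and median of the 10272 expressed genes. Horizontal bars on the right span the quartiles of the synthetic RNAs. The filled points of CDK4, CDC25A, SKP2 and CCNE1 lie to the right of the band in both panels, CCNE1 only just. Those of CCND2 and CCND3 lie inside it.

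Of the activators, CDC25A (NM_201567), the phosphatase that frees CDK2 from inhibitory phosphates, stood near the middle of the expressed genes in high c-Myc cells and near the bottom in low c-Myc cells. It stood at 12.3 RPKM in high c-Myc cells, rank 4396, against 1.40 RPKM in low c-Myc cells, rank 9516. The log2 ratio was 2.75 with the pseudocount, rank 320 of the expressed genes, and 3.14 without it (counting interval 3.01 to 3.27). Without a pseudocount CDC25A was therefore 8.79-fold higher and CDK4 7.91-fold, in the reverse of their order with it. Both rows of CDC25A gave nearly the same ratio, and the gene lies at chr3:48157146-48188402 on the minus strand (GRCh38, GENCODE release 29).

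SKP2 (chr5:36151989-36184319), the F-box protein that recognises p27Kip1 for its ubiquitin ligase, differed by transcript row. Its most abundant row, NM_032637, stood at 20.6 RPKM in high c-Myc cells and 6.36 RPKM in low c-Myc cells, a log2 ratio of 1.62. The rows NM_005983 and NM_001243120 stood at 12.6 and 12.3 RPKM in high c-Myc cells and 5.38 and 5.54 RPKM in low c-Myc cells, with log2 ratios of 1.15 and 1.09. All 3 rows were past 2-fold, and the row with the highest level also had the highest ratio. Reads shared between the rows cannot be told apart, and 10.8% of the NM_032637 transcript is matched by a near-identical copy elsewhere.

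CKS1B (NM_001826, chr1:154974653-154979249), the cofactor that SKP2 needs to bind p27Kip1, was nearly absent from the tables. It stood at 0.372 RPKM in high c-Myc cells and 0.0476 RPKM in low c-Myc cells, which correspond to about 30 and 4 reads. The log2 ratio was 0.67 with the pseudocount and 2.97 without it, with a counting interval of 1.37 to 4.84. Transcripts of 7 other annotated genes together match 93.5% of the CKS1B transcript at an identity of at least 90%. AP000873.3, annotated as antisense, matches 89.2% of it, and the pseudogenes CKS1BP3 and CKS1BP2 match 31.2% and 31.6%. No source used here says how reads with several matches were counted, so the level of CKS1B is uncertain. CKS2, the other mammalian gene of this small family, stood at 55.1 RPKM in high c-Myc cells and 48.5 RPKM in low c-Myc cells, a log2 ratio of 0.18.

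Per cell, all 10 genes passed 2-fold towards high c-Myc cells, beside 97.1% of the expressed genes, and 0 passed it the other way, beside 0.0876%, so the count alone says nothing particular about them. The median per-cell log2 ratio was 3.36 for the 10 genes and 2.78 for all expressed genes. CDK4 was 45.2-fold higher per cell, with a log2 ratio of 5.50 that spans 5.12 to 5.79 over the quartiles of the synthetic RNAs, and CDC25A was 39.7-fold higher with a log2 ratio of 5.31. SKP2, by its most abundant row, was 18.1-fold and CCNE1 12.4-fold higher per cell. The per-cell log2 ratio of SKP2 was 4.18 by that row and 3.64 by its lowest expressed row, where CCNE1 also stood at 3.64. The lowest was CCND2 at 5.08-fold, a log2 ratio of 2.35, below the median expressed gene. For the weakest genes, CKS1B, CCNE2 and CDK6, the pseudocount draws per-cell ratios towards the value that a gene absent from both libraries would take. Without it they were 46.0-fold, 14.6-fold and 12.6-fold higher, where with it they were 9.37-fold, 10.5-fold and 10.1-fold. The 46.0-fold of CKS1B rests on about 30 and 4 reads and is as uncertain as its level.

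**Figure D3:**
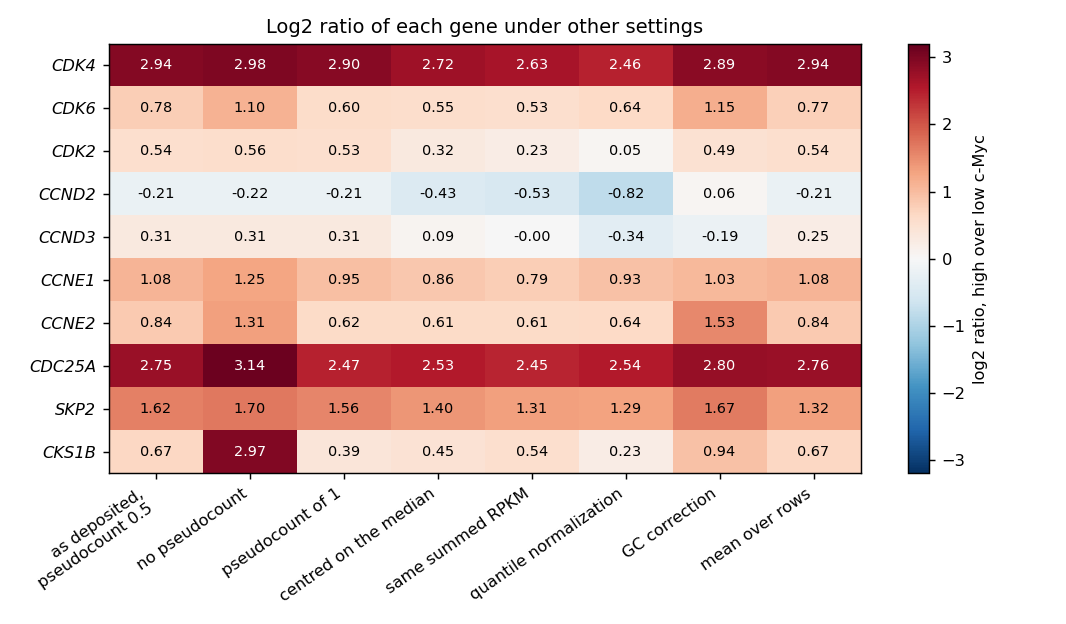
Log2 ratio of high over low c-Myc for each gene (rows) on the deposited scale and under 7 other settings (columns), coloured from blue (lower in high c-Myc) to red (higher). CDK4, CDC25A and SKP2 stay past 1 in every column shown. CCND3 changes sign after quantile normalization and GC correction, and barely, at -0.004, with equal summed RPKM. CCND2 changes sign with GC correction. CDK6 and CCNE2 pass 1 without a pseudocount and after GC correction, and CKS1B passes it without a pseudocount.

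Ratios in this pair of libraries went with the GC content of the transcript. The median log2 ratio of expressed genes over 10 bins of equal size ran from -0.36 at the AT-rich end to 1.39 at the GC-rich end. CDK4, CDC25A and SKP2 transcripts held 53.6%, 51.6% and 50.3% GC, in bins with medians of 0.32, 0.25 and 0.11. After correction their log2 ratios were 2.89, 2.80 and 1.67, close to the uncorrected values. CCNE2 and CDK6, at 35.4% and 39.5% GC, sat in the 2 most AT-rich bins, and correction took them to 1.53 and 1.15. CCND3 at 60.0% GC was the most GC-rich of the set.

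Other genes of the G1 pathway, 38 in 7 lists, had a median log2 ratio of 0.25. In high c-Myc cells 9 of them passed 2-fold upwards, 2 passed it downwards and 27 did neither. Over all expressed genes the shares were 24.9% upwards and 9.74% downwards. Of the 38 genes 33 were expressed, and every gene past 2-fold was among these. The counts lie near the background on either basis and are not set apart from it. The counts of single lists below rest on too few genes to be read against it. Of 4 genes that add or remove the inhibitory phosphates on the CDKs, 2 passed 2-fold upwards and 0 downwards. PKMYT1, a membrane-bound kinase that inhibits CDK1, stood at 84.0 RPKM in high c-Myc cells and 4.01 RPKM in low c-Myc cells, a log2 ratio of 4.23, the highest of the 38 genes as deposited, that was 2.88 after GC correction. WEE1, a nuclear kinase that also adds an inhibitory phosphate, had a log2 ratio of 1.13, while the phosphatases CDC25B and CDC25C stood at 0.19 and 0.24. CDC25A was thus the only CDC25 gene past 2-fold as deposited, and the difference between the CDC25 genes had no test.

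Among 7 E2F and DP factors, 3 passed 2-fold upwards and 0 downwards, around a median of 0.92. E2F1, an activator of S phase genes, stood at 59.0 RPKM in high c-Myc cells and 8.60 RPKM in low c-Myc cells, a log2 ratio of 2.71, and the lowest was the E2F5 gene at -0.31. TFDP1 and E2F2 had log2 ratios of 1.40 and 1.51. Of the 3 retinoblastoma family genes 1 was lower and none higher. RB1, the brake that CDK4 and CDK6 act on, stood at 11.9 RPKM in high c-Myc cells and 37.3 RPKM in low c-Myc cells, a log2 ratio of -1.61 that was -0.91 after GC correction, and RBL1 had the highest ratio of that list at 0.61.

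Of 7 CDK inhibitor genes, 1 passed 2-fold upwards and 1 downwards, around a median of 0.59. CDKN2A, whose products include an inhibitor of CDK4 and CDK6, was the higher one, and its most abundant row, NM_058195, is the transcript of its other product, ARF. That row stood at 7.08 RPKM in high c-Myc cells and 0.81 RPKM in low c-Myc cells, a log2 ratio of 2.53. CDKN2D, an inhibitor of CDK4 and CDK6, was the lower one at 12.6 RPKM in high c-Myc cells and 40.8 RPKM in low c-Myc cells, a log2 ratio of -1.66. CDKN1B, which encodes the SKP2 substrate p27Kip1, stood at 7.96 RPKM in high c-Myc cells and 5.12 RPKM in low c-Myc cells, a log2 ratio of 0.59.

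Of 8 genes of the SCF ubiquitin ligase and of cyclin turnover 2 were higher and none lower. The SKP2 partners SKP1, CUL1 and RBX1 had log2 ratios of 0.22, 0.12 and 0.21, FBXO31, an F-box receptor for cyclin D1 in human cells, had the highest at 1.73, FBXO4 stood at 1.06, and USP28, a deubiquitinase, had the lowest at -0.29. None of the 3 genes of the CDK-activating kinase was past 2-fold, with CCNH highest at 0.39 and CDK7 lowest at -0.55. Of 6 relatives of the set 1 was higher, the S phase cyclin CCNA2, at 17.5 RPKM in high c-Myc cells and 2.54 RPKM in low c-Myc cells, a log2 ratio of 2.57 that was 2.89 after GC correction, above the corrected value of PKMYT1. CCND1 had the lowest log2 ratio of that list at -0.06, and CCNA1 was listed at 0 in both libraries.

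**Figure D4:**
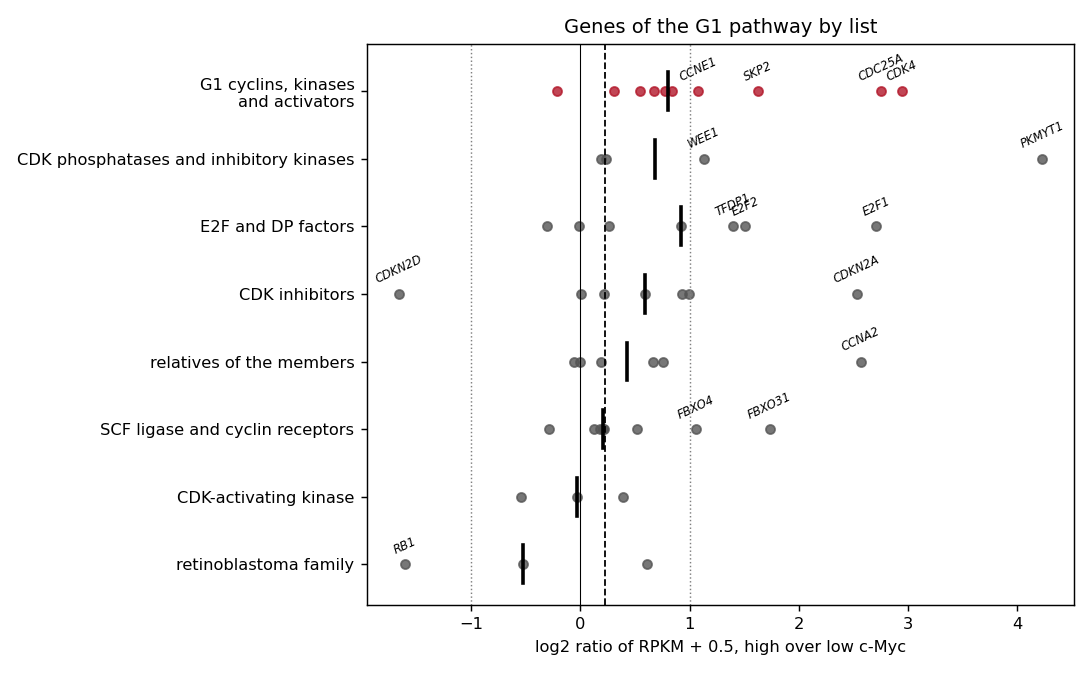
Log2 ratio of RPKM + 0.5, high over low c-Myc, of the 10 genes (red, top row) and of 38 other G1 pathway genes in 7 lists (grey), 1 point a gene, with a thick bar at each list's median; genes past 2-fold (dotted lines) are named. The dashed line is the median of all expressed genes at 0.22. PKMYT1 lies farthest to the right at 4.23, and CDKN2D and RB1 are the genes past 2-fold on the left.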

How the data were processed

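Per the labels' protocols, total RNA received synthetic RNAs by cell number, poly(A) RNA was selected, and dUTP libraries that keep strand went through 15 cycles of PCR. Bowtie and build hg18 are named, per the submitters' processing notes. No source used here gives the counting tool, its use of strand or its filters. The authors deposited RPKM values per transcript, per the file headers, and a signal column in which they renormalized values by the synthetic RNAs (method not stated). That column served as 1 alternative.

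Each table has 34286 rows (34194 transcripts). Depth was found from RPKM times GENCODE release 29 transcript length, whose steps put 46.6% (high c-Myc) and 49.4% (low c-Myc) of transcripts with up to 20 reads no more than 0.05 from a whole number, where chance gives 10%. The lengths are not those the authors used, so reads are approximate. Intervals are exact binomial or Poisson at 95%. GC correction subtracted the median of 20 equal bins, with a GC value for 96.9% of expressed genes. Near-identical copies and shorter shared stretches were sought with BLAST+ 2.17.0, at an identity of at least 90% over at least 50 bases. Python 3.11.15, numpy 2.4.6, pandas 2.3.3, scipy 1.17.1 and matplotlib 3.10.9 were used. The depth search, the ratios and the GC correction were tested on simulated data. The simulation used the same transcript lengths and a linear GC trend without noise. It therefore could not check the effect of lengths other than the authors' or of a GC trend of another shape. The genes and lists were chosen with earlier results of these data known. All 10 genes were named, and of each list the highest and lowest ratio and any gene needed to describe one of the 10. Further list genes past 2-fold were named after their values were seen.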

Additional observations from a re-analysis of the deposited data

How the results depend on the processing

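CDK4, CDC25A and SKP2 stayed past 2-fold towards high c-Myc cells under all 11 alternatives as deposited, and all 10 genes did so per cell under every alternative that kept them. The count of the 10 genes past 2-fold upwards as deposited, 4 as reported, was 7 without a pseudocount and 7 with one of 0.1, since CDK6, CCNE2 and CKS1B then passed, beside 27.1% and 26.6% of the expressed genes. It was 6 after GC correction (22.2%) and 3 with a pseudocount of 1 (23.1%), after centring (19.8%), with equal summed RPKM (18.2%) and after quantile normalization (17.3%). Their median log2 ratio, 0.81 as reported, was 1.28 without a pseudocount, 1.19 with 0.1, 0.61 with 1, 1.08 for the 6 genes at a mean RPKM of at least 5, 0.58 after centring, 0.58 with equal summed RPKM, 0.64 after quantile normalization and 1.09 after GC correction. Expressed genes at least 2-fold lower, 1001 as deposited, numbered 649 at a mean RPKM of at least 5, 1516 after centring, 1642 with equal summed RPKM and 1768 after quantile normalization. Of the genes past 2-fold, those higher made up 71.8% as deposited, 57.3% after centring, 53.2% with equal summed RPKM and 50.1% after quantile normalization, which set the median gene at 0, -0.07 and -0.09. Per cell, the median of the 10 genes, 3.36 as reported, was 3.84 without a pseudocount, 3.75 with 0.1 and 3.17 with 1. It was 3.64 for the 6 genes at a mean RPKM of at least 5, which were all higher. In the authors' renormalized column it was 2.61. That column is on another scale, and the same pseudocount of 0.5 was added to it, which shrinks scarce transcripts by another amount. Without a pseudocount CCND2, CCNE2 and CDK4 were 4.12-fold, 12.2-fold and 38.1-fold higher in that column. The ratios per cell without one were 5.07-fold, 14.6-fold and 46.5-fold. Expressed genes 2-fold lower per cell, 9 as reported, numbered 18 without a pseudocount and 15 with 0.1. They numbered 18 in the authors' renormalized column with the pseudocount of 0.5. Without a filter 18791 genes were counted as higher per cell, where a gene at 0 in both libraries takes the inverse of the synthetic RNA ratio. Within a library, CCND3 over CCND2 was 1.18 in high c-Myc cells from the mean of all rows, and 4.71 in high and 3.41 in low c-Myc cells from the sum of rows, which counts shared reads of the 4 CCND3 rows repeatedly. CDK6 over CDK4 was 0.0294 in high and 0.108 in low c-Myc cells from the sum of rows. No paired analysis was possible because each group held 1 library, and no library could be left out for the same reason.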
